A study of Mus musculus with 14 samples.

Results

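The glutathione peroxidase family was followed in retinal pigment epithelium (RPE) of rd1 mice with and without added Nrf2. Its 8 genes, Gpx1 to Gpx8, were taken by gene symbol from a table of 34452 mouse genes, without regard to their values. The rd1 mouse (FVB/N strain) lacks functional rod phosphodiesterase, so its rods degenerate early and the RPE changes afterwards. In each of 7 mice, both eyes received an AAV vector driving GFP from the RPE-specific Best1 promoter, and in the Nrf2 eye a second AAV drove human Nrf2 from the same promoter. The control eye therefore shared the disease, the injection and GFP. Nrf2 was packaged in an AAV8 capsid and GFP in another, AAV27M8, so by design only the Nrf2 eyes met an AAV8 vector. By the study's methods the Nrf2 eyes also received a higher total vector dose. Capsid, dose and transgene cannot be told apart. RPE RNA was taken at postnatal day 20, amplified from polyA RNA and sequenced, giving 14 libraries (7 Nrf2, 7 control).

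Glutathione peroxidases reduce hydrogen peroxide and organic hydroperoxides with electrons from glutathione. Gpx1 is the cytosolic and mitochondrial enzyme, Gpx2 the gastrointestinal one, Gpx3 is secreted into plasma, and Gpx4 reduces phospholipid hydroperoxides inside membranes, which holds off ferroptosis, a form of death by lipid peroxidation. Gpx5 is an epididymal and Gpx6 an olfactory enzyme, while Gpx7 and Gpx8 sit in the endoplasmic reticulum and take part in oxidative protein folding. Nrf2 is a transcription factor that turns on genes of glutathione synthesis and peroxide removal. The RPE meets a high oxidative load from light, oxygen and the lipid-rich outer segments that it takes up.

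The members fall into 2 groups by the residue that attacks the peroxide. The 33 coding bases around that codon are given 5′ to 3′ along each gene's own strand, with the codon in capitals, because it separates the members that depend on selenium from those that do not. The sequences are from the reference annotation (GENCODE M21, build GRCm38), not from these mice.
Gpx1: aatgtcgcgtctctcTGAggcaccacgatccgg
Gpx2: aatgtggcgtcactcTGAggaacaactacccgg
Gpx3: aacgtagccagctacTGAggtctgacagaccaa
Gpx4: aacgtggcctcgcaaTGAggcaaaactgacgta
Gpx5: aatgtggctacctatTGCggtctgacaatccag
Gpx6: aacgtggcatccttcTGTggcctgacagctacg
Gpx7: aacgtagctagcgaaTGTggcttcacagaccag
Gpx8: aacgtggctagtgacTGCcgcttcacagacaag
In Gpx1, Gpx2, Gpx3 and Gpx4 the codon was TGA, which is read as selenocysteine in these transcripts and as a stop elsewhere. In Gpx5, Gpx6, Gpx7 and Gpx8 it was TGT or TGC, for cysteine. The Gpx4 codon lay in exon 3 of 7 on chromosome 10 (chr10:80054737-80054739, residue 73 of 197 in the annotated protein), and the Gpx1 codon in exon 1 of 2 on chromosome 9 (chr9:108339451-108339453, residue 47 of 201). No exon of a member overlapped an exon of another gene.

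Library totals ran from 16548349 to 50543008 counts. Vector-derived NFE2L2 reached 4577 to 8711 CPM (counts per 1000000 counts of the library total) in 6 Nrf2 libraries, but 1163 CPM in the Nrf2 library of mouse 4. It was 1.12 to 175.4 CPM in 6 control libraries and 1163 CPM in the control library of mouse 3, so the libraries labelled Nrf2 4 and control 3 held about the same amount. For mouse Nfe2l2 itself the log2 difference was 0.28 ± 0.10 (SE; adjusted p = 0.204). The control library of mouse 6 had the highest summed level of 8 surface epithelium markers (57719 CPM; next highest 36245) and the lowest sums of RPE and fibroblast markers. The Nrf2 library of mouse 2 had 2.55% of counts in pseudogenes, against 1.06% to 1.17% in the others. Some results, mainly those of the tested members, are given with and without these mice, and the rest with all mice. All 15 RPE markers were detected, and their summed level was 25211 to 34776 CPM in Nrf2 and 20019 to 41611 CPM in control libraries. In bulk RNA, fewer cells of a type and less RNA per cell cannot be told apart.

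Of the 8 members, 5 passed the filter on low counts (Gpx1, Gpx3, Gpx4, Gpx7 and Gpx8). Gpx4 was higher in the Nrf2 eyes by 3.17-fold and was the only member with an adjusted p under 0.05 when edgeR was fitted to 16289 genes with the eyes paired. That is 1 of 5 tested members, where 3.43% of all tested genes passed, 2.94% higher and 0.491% lower. Gpx1 and Gpx8 had positive fold changes that did not pass, Gpx3 had a lower level in 6 of 7 mice, and Gpx7 moved little. The plot of levels shows each member in each eye.

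**Figure D1:**
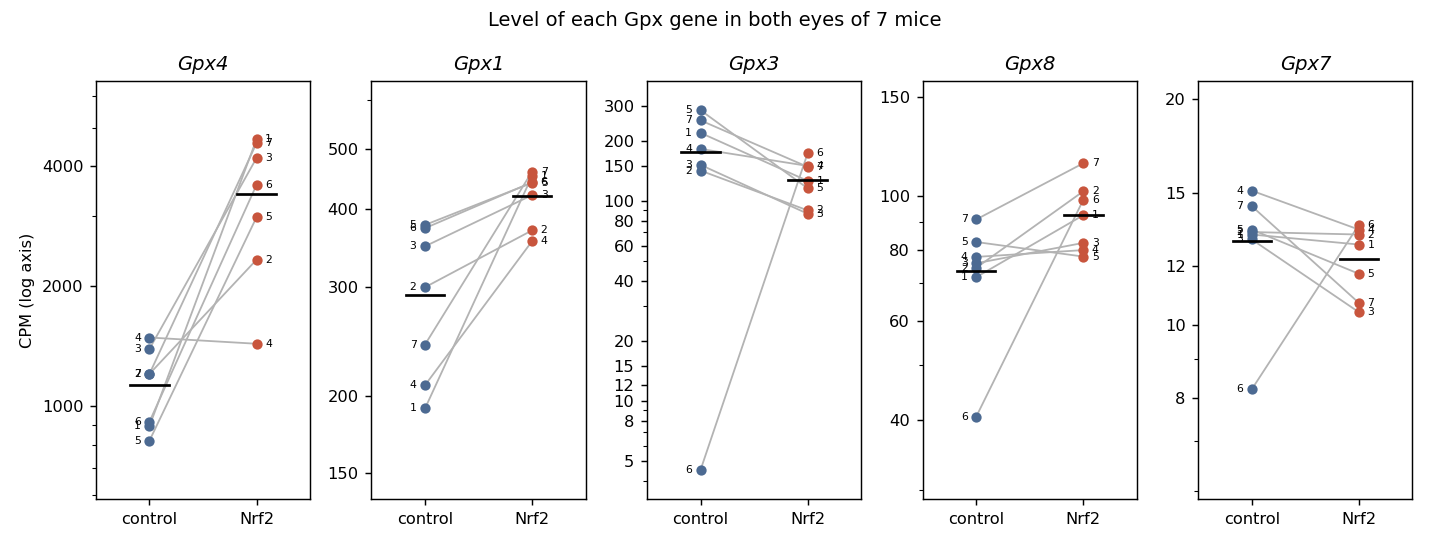
CPM (log axis, a separate range for each gene) of 5 members in the control (blue) and Nrf2 (red) eye of 7 mice; lines join the eyes of a mouse, digits are mouse numbers and black bars are group means. For Gpx4, 6 lines rise and the line of mouse 4 is flat; for Gpx3, 6 lines fall and that of mouse 6 climbs from 4.55 CPM.

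Scaling by library totals placed the median paired difference of all tested genes at -0.16 (log2), and scaling by TMM, the factors used in the edgeR fit, at -0.04. The 2 scales differed by 0.13 in the mean paired difference, and values of that size are read with this in mind.

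Gpx4, the phospholipid hydroperoxidase, stood at 4680, 2333, 4200, 1435, 2983, 3597 and 4579 CPM in the Nrf2 eyes of mice 1 to 7. In their control eyes it stood at 892, 1206, 1393, 1488, 820, 915 and 1206 CPM. The group means were 3401 ± 1217 and 1131 ± 261 CPM (SD, n = 7). The 6 Nrf2 eyes other than that of mouse 4 lay above all control eyes. On library totals the Nrf2 eye of mouse 4 lay below its own control. The edgeR log2 fold change was 1.67 (SE 0.32, 95% interval 0.94 to 2.39, adjusted p = 0.0288), with rank 339 by p. The within-mouse difference of log2 CPM was 1.52 ± 0.82, from -0.05 in mouse 4 to 2.39 in mouse 1, and higher in 6 of 7 mice (exact two-sided sign-flip permutation test, p = 0.0312, where 0.0156 is the smallest possible).

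The 2 libraries with 1163 CPM of vector transcript held 1435 (Nrf2 4) and 1393 (control 3) CPM of Gpx4. Without mice 3 and 4 the Gpx4 log2 fold change was 1.93 (adjusted p = 0.0214), where 4.5% of all tested genes passed. The Gpx4 call depended on which mice were included: leaving out a single mouse gave log2 fold changes of 1.48 to 1.91, and the adjusted p passed only without mouse 2 (0.0494) or mouse 4 (0.00422). It was 0.0923, 0.105, 0.0924, 0.0711 and 0.111 without mice 1, 3, 5, 6 and 7. Calls over all genes in these sets were 143, 164, 155, 240 and 111, against 559 with all mice. The exact sign-flip permutation p rose to 0.0625 on leaving out any mouse but mouse 4, where 6 mice allow 0.0312. On library totals a set of 6 that keeps mouse 4, the only mouse with a negative difference there (-0.05), cannot go below 0.0625. That rise therefore says nothing about the mouse left out. With TMM scaling the mean within-mouse difference of Gpx4 over all mice was 1.65 ± 0.87 (exact sign-flip permutation p = 0.0156). That p is reached only when all mice go the same way, so the sign of mouse 4 depended on the scaling.

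Gclm and Nqo1, known to respond to Nrf2, were set beside it. Gclm, the regulatory subunit of the first enzyme of glutathione synthesis, rose by 2.99 ± 0.34 (SE) on the log2 scale (adjusted p = 0.00936). Nqo1, a quinone reductase, rose by 2.05 ± 0.26 (adjusted p = 0.00983). Both were higher in 7 of 7 mice. Their smallest within-mouse differences were also those of mouse 4, at 1.32 for Gclm and 0.49 for Nqo1.

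**Figure D2:**
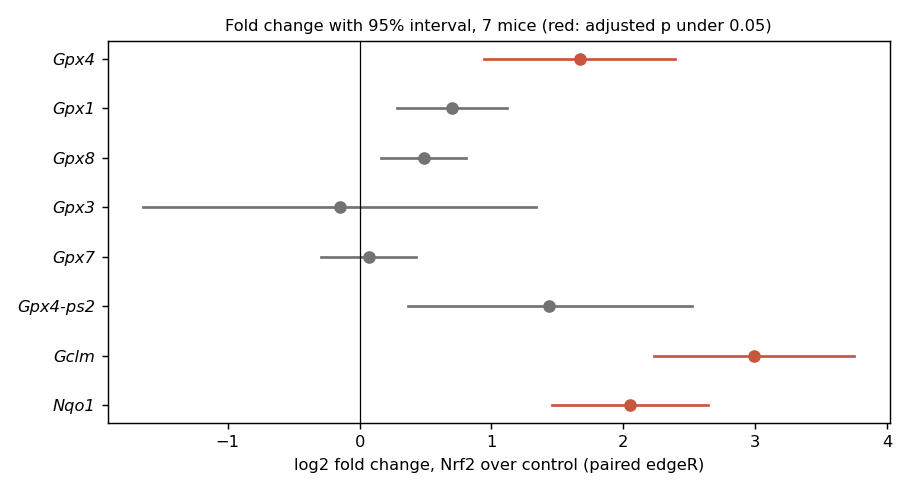
Log2 fold change, Nrf2 over control, from the paired edgeR fit for the 5 tested members, the pseudogene Gpx4-ps2 and the reference genes Gclm and Nqo1; bars are 95% intervals and red marks an adjusted p under 0.05. Gpx4 (1.67) is the only family member in red, between Gpx1 (0.70) and Nqo1 (2.05), and Gpx3 has the widest interval (-1.64 to 1.34).

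Gpx4 has a transcribed processed pseudogene on the same chromosome, Gpx4-ps2 (chr10:45875291-45876086), whose reads resemble those of Gpx4 and may be divided between the 2 rows. Its counts were 0.276% to 1.12% of those of Gpx4. The fitted change was 1.44 ± 0.47 (SE) on the log2 scale (adjusted p = 0.155), and its largest exception was again mouse 4 (-1.71). Gpx2-ps1, the other row with a Gpx symbol, held 5 counts in all libraries together.

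Gpx1, the abundant cytosolic peroxidase, stood at 452.6, 369.7, 421.5, 355.2, 441.2, 442.0 and 460.0 CPM in the Nrf2 eyes of mice 1 to 7. In the control eyes it stood at 190.7, 299.2, 348.4, 207.9, 377.2, 372.7 and 241.8 CPM. The Nrf2 eyes spanned a narrower range than the control eyes, and the groups overlapped. Each of the 7 mice had the higher level in its Nrf2 eye, by 0.23 to 1.25 on the log2 scale (mean 0.57 ± 0.41, exact sign-flip permutation p = 0.0156, the smallest possible). The edgeR log2 fold change was 0.70 (SE 0.18, 95% interval 0.28 to 1.12), a fold of 1.62, and its adjusted p of 0.0857 missed the threshold. It passed in DESeq2 (adjusted p = 0.00401) and in voom with quality weights (adjusted p = 0.0225). Those tools called 11.9% and 15.9% of all genes, and 3 of the 5 tested members each (Gpx1, Gpx4 and Gpx8), so Gpx1 is called or not depending on the tool.

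Gpx3, the secreted plasma enzyme, stood at 126.4, 90.0, 86.6, 150.2, 116.0, 174.3 and 148.5 CPM in the Nrf2 eyes. In the control eyes it stood at 219.7, 142.3, 152.0, 182.6, 285.1, 4.55 and 253.7 CPM. It was lower in the Nrf2 eye of 6 mice, while the control library of mouse 6 held only 108 counts of it and that mouse's difference was 5.24 in the opposite direction. With all mice the edgeR log2 fold change was -0.15 (SE 0.65, 95% interval -1.64 to 1.34, adjusted p = 0.932). The mean within-mouse difference over the 7 mice was 0.09 ± 2.29, of the opposite sign (exact sign-flip permutation p = 1.0). Without mouse 6 the edgeR log2 fold change was -0.63 (SE 0.12, adjusted p = 0.0547). The mean within-mouse difference was then -0.77, with lower values in 6 of 6 mice, from -1.3 to -0.28 (exact sign-flip permutation p = 0.0312, the smallest that 6 mice allow). That p was set by leaving out the mouse that went the other way. The difference thus missed the edgeR threshold with and without mouse 6, and the value over 7 mice is set by 1 library.

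Among the genes closest to Gpx3 over the 14 libraries were Nkd2 and Fbn2, with mean absolute differences in centred log2 CPM of 0.24 and 0.316, where the median gene was at 0.81. Nkd2 was at 30.1 to 65.7 CPM in Nrf2 and at 45.8 to 120.3 CPM in 6 control eyes, but at 1.26 CPM in control 6, the library in which Gpx3 was also lowest. The summed level of 8 ciliary and iris epithelium markers was 5698 to 10242 CPM in Nrf2 and 7999 to 19000 CPM in control eyes, and lower in the Nrf2 eye of 7 of 7 mice. In mouse 6 that sum was 7387 CPM in the Nrf2 and 8572 CPM in the control eye. Gpx3 had the opposite order there, at 174.3 and 4.55 CPM. None of the 8 markers passed the threshold, and the part of ciliary tissue in the Gpx3 levels was not tested.

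Gpx8, a membrane enzyme of the endoplasmic reticulum, stood at 92.4, 101.9, 82.5, 80.1, 78.0, 98.4 and 114.3 CPM in the Nrf2 eyes. In the control eyes it stood at 71.7, 74.5, 75.9, 77.9, 82.8, 40.5 and 90.8 CPM. It was higher in 6 of 7 Nrf2 eyes, and control 6 was again the lowest library. The edgeR log2 fold change was 0.49 (SE 0.14, 95% interval 0.16 to 0.81) and an adjusted p of 0.116. The adjusted p was 0.0236 in DESeq2 and 0.0485 in voom. The mean within-mouse difference was 0.36 ± 0.45 (exact sign-flip permutation p = 0.0469) with mouse 6, and 0.20 without it (p = 0.0938 in the same permutation test), a change of over 1.5 times. That p stayed under 0.05 only when mouse 5 was the one left out. On library totals a set of 6 that keeps mouse 5, the only mouse with a negative difference there (-0.09), cannot go below 0.0625. With TMM scaling the mean within-mouse difference of Gpx8 over all mice was 0.49 ± 0.39 (exact sign-flip permutation p = 0.0156). That p is reached only when all mice go the same way, so the sign of mouse 5 depended on the scaling.

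Gpx7, the soluble counterpart of Gpx8, stood at 12.8, 13.2, 10.4, 13.4, 11.7, 13.6 and 10.7 CPM in the Nrf2 eyes. In the control eyes it stood at 13.2, 13.3, 13.03, 15.1, 13.4, 8.21 and 14.4 CPM. The groups overlapped almost fully. In edgeR it differed by 0.07 ± 0.16 (SE) on the log2 scale (adjusted p = 0.86), and its 95% interval, -0.29 to 0.43, allowed changes of up to 1.35-fold upwards. On library totals the mean within-mouse difference was -0.06 ± 0.38, so the direction turned with the scaling. Without mouse 6 that difference was -0.19, lower in 6 of 6 mice (exact sign-flip permutation p = 0.0312), in a value of about the size of the shift between the scales.

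**Figure D3:**
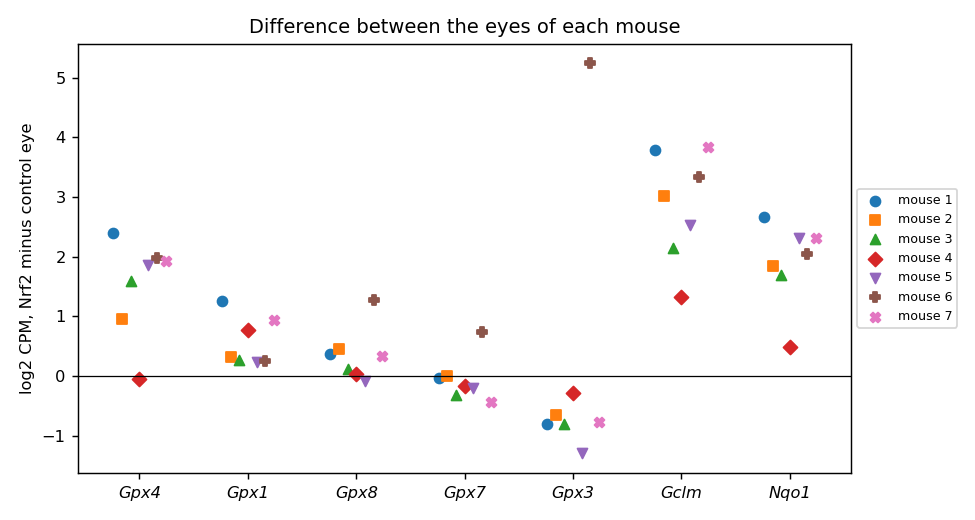
Difference in log2 CPM between the Nrf2 and control eye of each of 7 mice, for the 5 tested members and for Gclm and Nqo1. Mouse 4 (red diamonds) has the smallest difference in Gpx4, Gclm and Nqo1 (-0.05, 1.32 and 0.49), and mouse 6 (brown crosses) stands above the others in Gpx3, Gpx8 and Gpx7 (5.24, 1.28 and 0.73).

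The within-mouse differences of Gpx4 were set against those of the other 4 tested members. Gpx4 differed by 1.58 ± 0.85 more than Gpx7 (7 of 7 mice, exact sign-flip permutation p = 0.0156) and by 1.16 ± 0.80 more than Gpx8 (6 of 7, exact p = 0.0312). It differed by 0.95 ± 0.87 more than Gpx1 (6 of 7, exact p = 0.0469). Against Gpx3 the margin was 1.43 ± 2.32 (6 of 7, exact p = 0.172). Gpx4 was singled out here with its values known, and after Benjamini-Hochberg adjustment over the 4 exact comparisons the first 3 stood at 0.0625 and the last at 0.172, none past 0.05. In mouse 4 the order of Gpx4 and Gpx1 was the other way, by 0.82, since Gpx1 was higher by 0.77 in its Nrf2 eye while Gpx4 was level. The difference between Gpx4 and the others does not depend on how libraries are scaled, because both genes come from the same library.

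The remaining 3 members were at or near the limit of detection. Gpx2 was found in 13 libraries at 0.031 to 1.05 CPM, with 107 counts in all, and reached 10 counts in 3 libraries. It did not pass the filter, and when fitted without the filter it gave -0.09 ± 0.83 (SE) on the log2 scale (adjusted p = 0.98). Gpx5 had 47 counts in all, of which 44 were in Nrf2 2 (2.66 CPM), the library with the high pseudogene share. Fitted without the filter it gave 2.05 ± 1.70 (SE) on the log2 scale (adjusted p = 0.712), a value that rests on that library. Gpx6 had no count in any library. With 454607666 counts in all, a level up to 0.0066 CPM is allowed by a count of 0 (3 counts, counting error only). Both are cysteine forms.

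Scaled for the length of exon sequence, Gpx4 was the highest member in all 14 libraries. In control eyes the levels were 656 ± 151 CPM per kb for Gpx4, 202 ± 54.4 for Gpx1, 97.7 ± 50.9 for Gpx3, 70.1 ± 15.1 for Gpx8 and 10.05 ± 1.73 for Gpx7 (SD, n = 7). Within a control library Gpx4 was above Gpx1, Gpx1 above Gpx3 and Gpx8 above Gpx7 in 7 of 7 cases, and Gpx3 above Gpx8 in 6 of 7, with control 6 the exception. In the Nrf2 libraries Gpx3 was above Gpx8 in 2 of 7 (mice 4 and 6), and the other orders held in 7 of 7. By this scale Gpx4 had rank 56 among all tested genes in control eyes and Gpx7 rank 4966. The level summed over the family was 1036 ± 153 CPM per kb in control and 2433 ± 736 CPM per kb in Nrf2 eyes. Gpx4 made up 62.9% ± 7.35 of that sum in control and 79.5% ± 6.49 in Nrf2 eyes, higher in 6 of 7 mice. Gpx1 made up 19.97% and 12.9%, Gpx3 9.41% and 3.22%, Gpx8 6.77% and 3.94%, and Gpx7 0.974% and 0.442%. With the longest transcript as gene length the Gpx4 shares were 70.5% and 84.3%. Shares sum to a whole, so the lower shares of Gpx1 and Gpx8 go with levels that were not lower.

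**Figure D4:**
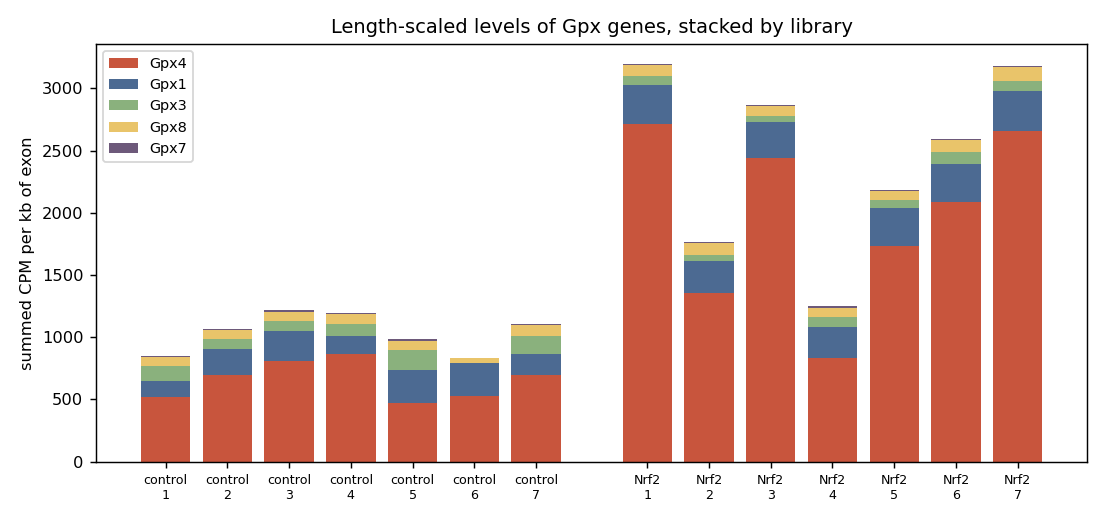
Stacked bars of the length-scaled level (CPM per kb of exon sequence) of 5 members in 14 libraries, control on the left and Nrf2 on the right, numbered by mouse. The sums are 837 to 1216 in control and 1249 to 3197 in Nrf2 libraries, and the growth is in the Gpx4 segment, except in Nrf2 4.

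The RefSeq promoters of the members (GRCm38.p6, 250 bases before to 50 after each start, 11 promoters for 8 genes) were searched on both strands for TGACNNNGC, the core of the antioxidant response element that Nrf2 binds. None of the 11 held it, and 12.4% of all 32851 promoters did. These letters were thus not in these windows, which says nothing of sites farther away.

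The genes whose pattern over the 14 libraries lay closest to that of Gpx4 were Pla2g12a, Hsd3b7 and E2f6, with mean absolute differences in centred log2 CPM of 0.107, 0.142 and 0.173 (median over 12024 genes, 0.93). Pla2g12a, a secreted phospholipase A2, had 55.1 to 102.7 CPM in control and 112.6 to 376.9 CPM in Nrf2 eyes. Closest to Gpx1 were Anxa7, Anxa4 and Tmed3 (0.079, 0.108 and 0.112, median 0.48). Closest to Gpx8 were Dpp7, Mesd and Sdc2 (0.075, 0.08 and 0.082, median 0.37), and closest to Gpx7 were C87436, Gnpda1 and Ubac2 (0.081, 0.086 and 0.091, median 0.29). Genes with small differences between libraries, such as Gpx7, have many close neighbours by this measure.

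The partner genes of the family were then described by lists, each read against the 3.43% of all genes that passed and their median log2 fold change of -0.04. In glutathione supply and reduction, 9 of 27 tested genes rose and 0 fell (median 0.32). Gclc, the catalytic subunit of glutathione synthesis, had a log2 fold change of 4.16 (SE 0.50), Gclm 2.99 (SE 0.34) and Slc7a11, the cystine importer, 2.68 (SE 0.33), each with an adjusted p of 0.00936. The other 6 that rose were Gss, Gsr, Pgd, Ggt5, G6pdx and Me1, which make, recycle or break down glutathione or supply NADPH.

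The list of selenoprotein synthesis and selenium supply includes, among others, genes on which Gpx1 to Gpx4 depend for their selenocysteine. In it 0 of 14 tested genes passed, with log2 fold changes from -0.25 to 1.33 and a median of -0.01. The largest value was that of Lrp2, an uptake receptor (SE 0.32, adjusted p = 0.0657). Of 17 other tested selenoproteins, 1 rose, the thioredoxin reductase Txnrd1 (3.53, SE 0.37, adjusted p = 0.00936), and the median was 0.13. Gpx4 and Txnrd1 were thus the selenoprotein transcripts past the threshold.

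The list of other peroxide-removing enzymes also holds partners of such enzymes, among them Srxn1 and Txnrd1, the latter also in the selenoprotein list. Of its 17 tested genes, 6 rose and 0 fell (median 0.29). Srxn1, which repairs oxidised peroxiredoxins, had 4.67 (SE 0.58), Txnrd1 3.53 and Gstp1, a glutathione transferase, 3.40 (SE 0.41), each with an adjusted p of 0.00936. The others were Prdx6, Prdx1 and Cat. Of 21 tested genes listed under lipid peroxidation and ferroptosis, the process that Gpx4 opposes, 5 rose and 0 fell (median 0.07). The list mixes genes that promote and genes that restrain that process, so this count gives no direction for it. Slc40a1, the iron exporter, had 3.41 (SE 0.42, adjusted p = 0.00936), Slc7a11 2.68 and Hmox1, the heme oxygenase, 4.30 (SE 0.56, adjusted p = 0.0101), and the ferritin genes Fth1 and Ftl1 also rose. The largest negative values in this list, Alox15 (-1.95, SE 0.78, adjusted p = 0.233) and Alox12 (-1.75, SE 0.75, adjusted p = 0.261), which encode lipoxygenases, did not pass. Of 18 tested genes of oxidative folding in the endoplasmic reticulum, where Gpx7 and Gpx8 act, 0 passed, and the values ran from -0.28 to 0.32 (median 0.10).

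**Figure D5:**
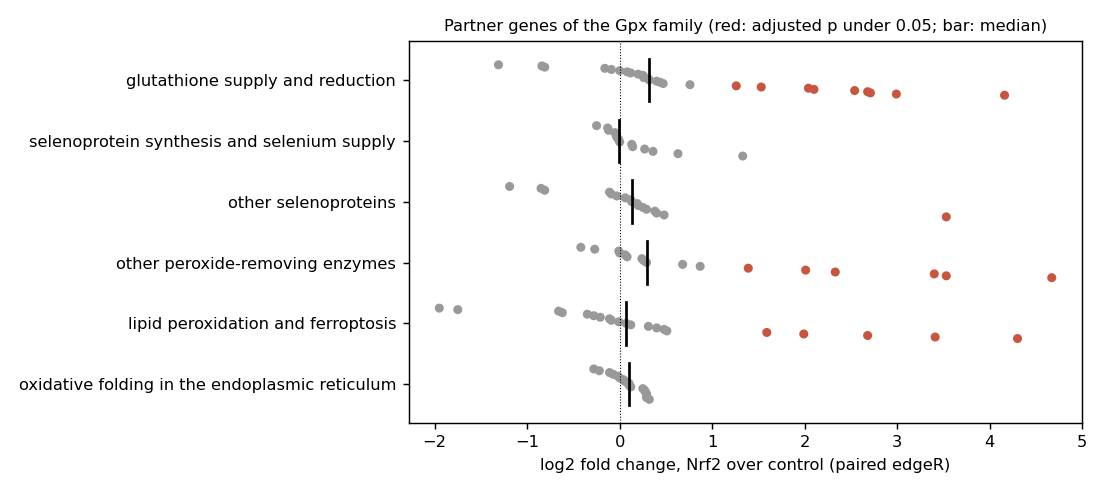
Log2 fold change, Nrf2 over control, of every tested gene in 6 partner lists; each point is a gene, red marks an adjusted p under 0.05 in the paired edgeR fit, and the black bar is the list median. Genes in red lie between 1.26 and 4.67 in the glutathione, peroxide-removing and ferroptosis lists, and the selenium supply and oxidative folding lists hold none.

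Markers of other cell types were given beside these values. The summed level of 9 rod markers was 6.79 to 93.6 CPM in Nrf2 and 21.8 to 517 CPM in control eyes, and that of 9 cone markers 18.9 to 106 and 43.4 to 1066 CPM, with 2 cone markers lower past the threshold. None of 10 immune, 10 fibroblast or 8 surface epithelium markers passed. The summed surface epithelium level was nevertheless lower in the Nrf2 eye of 6 of 7 mice (median 8476 CPM in Nrf2 and 24754 CPM in control eyes) and higher in mouse 4 (23310 against 2067 CPM). These are the 6 mice in which Gpx4 was higher on library totals, and mouse 4 is the one in which it was not. The Nrf2 library of mouse 4 also held the least vector transcript of its group (1163 CPM). Its surface epithelium sum was close to that of Nrf2 5 (24066 CPM), while Gpx4 stood at 1435 CPM in Nrf2 4 and 2983 CPM in Nrf2 5. The cone and endothelium sums were lower in the Nrf2 eye of 7 of 7 mice and the rod sum in 6 of 7. Of the 15 RPE markers 1 fell, Rpe65, the isomerase of the visual cycle, at 134 to 1063 CPM in Nrf2 and 752 to 2221 CPM in control eyes. In no list was a marker at 0 in all libraries. The part of cell makeup in the Gpx levels was not tested.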

How the data were processed

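RPE polyA RNA from both eyes of 7 mice was amplified and sequenced in 2 runs; which library was in which run is not given in the sources used here. The authors deposited estimated counts per gene (expected counts) for the 14 libraries, made with a pipeline whose tools, per the labels and methods, include FastQC, STAR, featureCounts and Salmon 0.9.1 (mm10, Ensembl 91). The tool behind the deposited table is not stated. Counts entered the fits as whole numbers, and 34401 of 34452 mouse genes matched GENCODE M21. Groups, and the pairing by mouse, came from the sample labels, which give the individual; the study's methods name fewer pairs for this age than the 7 mapped here.

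The main fit was edgeR 4.0.16 (limma 3.58.1, R 4.3.3): TMM scaling, genes kept by filterByExpr (minimum count 10), glmQLFit with mouse as a block (6 residual degrees of freedom, prior 2.68), glmQLFTest, and Benjamini-Hochberg adjustment over 16289 mouse genes with a threshold of 0.05. The study used DESeq2, run here (1.42.0) as an alternative beside voom with quality weights. The intervals are 95%. Within-mouse differences used log2 CPM on library totals (prior count 2) whose signs were flipped in all 128 patterns (exact permutation, two-sided). Levels between genes used CPM per kb of union exon length. Replicates are eyes of different mice. Counts come from reads without molecular identifiers, so limits from a count of 0 cover counting error only.

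Named genes were all members, other rows with a Gpx symbol, up to 3 genes of lowest adjusted p past the threshold in each partner list (others by name or range), the 3 genes closest to each tested member (mean CPM of 5 or more), the vector transcript, mouse Nfe2l2, Gclm and Nqo1. Genes named outside this rule (Lrp2, Alox12, Alox15 and Rpe65), and the genes given with levels for likeness (Nkd2 and Pla2g12a), were chosen after their values were seen. 1 gene that the rule names is not reported here. The members and lists were chosen with earlier results of these data known. Alternatives were other normalizations, no filter, no block, other tools, another prior count, another gene length, and leaving out mice.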

Additional observations from a re-analysis of the deposited data

Results flagged for a closer look

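In 9 of the 23 groups of 7 values examined, 1 sample stood apart from the others by Dixon's criterion (its gap to the next value against the range). For independent, normally distributed groups chance would flag about 1 in 20, here 1.1. Rows near 0, and a library that enters several groups, do not meet those conditions, so 9 against 1.1 is not a test. The control library of mouse 6 accounted for most of the flagged groups. It held the highest control level of Gpx2 (1.05 CPM), the lowest of Gpx7 (8.21 CPM) and the lowest of Gpx8 (40.5 CPM), and its mouse had the highest within-mouse difference in Gpx3 (5.24), Gpx7 (0.73) and Gpx8 (1.28). The same library had the highest summed surface epithelium markers and the lowest summed RPE, fibroblast and Müller glia markers; their part in these values was not tested. Gpx5 was at 2.66 CPM in the Nrf2 library of mouse 2 and at or near 0 in the rest, and that library had the highest share of counts in pseudogenes (2.55%). Gpx2-ps1 was flagged at 0.0931 CPM in Nrf2 3 and at 0.0248 CPM in control 1, which are 3 counts and 1 count.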

How the results depend on the processing

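Gpx4 kept its direction in every alternative, from 1.48 to 1.91 with single mice left out, and lost its call without mice 1, 3, 5, 6 or 7. Without the replicate block, which comes from the labelled animal, its log2 fold change was 1.75 (adjusted p = 0.00196) and no member's call changed, while calls over all genes went from 559 to 1100 (877 higher, 223 lower). They were 347 (307 and 40) with no filter on low counts, 1943 (1238 and 705) in DESeq2, 2590 (1585 and 1005) in voom, and 111 to 1998 with single mice left out (without mouse 7 and mouse 4). Called members were 3 in DESeq2 and 3 in voom, with Gpx1 (0.71 in both) and Gpx8 (0.50 and 0.41) added, and 0 to 1 with single mice left out. Gpx7 was -0.02 in voom and -0.05 to 0.13 over single mice left out, and Gpx3 -0.63 to 0.05. Without mice 3 and 4 the within-mouse differences were 0.59 for Gpx1, 1.82 for Gpx4, 0.47 for Gpx8 and 0.01 for Gpx7; 5 mice cannot go below an exact permutation p of 0.0625. With TMM and all mice they were 0.70 for Gpx1, 1.65 for Gpx4 and 0.49 for Gpx8 (exact sign-flip permutation p = 0.0156 each), and 0.07 for Gpx7. With single mice left out the within-mouse differences were -0.77 to 0.32 for Gpx3, 1.38 to 1.78 for Gpx4, -0.19 to 0.00 for Gpx7 and 0.20 to 0.43 for Gpx8. Their exact permutation p went over 0.05 in 6 of 7 such sets for Gpx4 (highest 0.0625) and for Gpx8 (highest 0.0938), and in none for Gpx1. Those 6 sets kept the only mouse with a negative difference on library totals (mouse 4 for Gpx4, mouse 5 for Gpx8) and could not go below 0.0625. Among genes named for likeness, Fbn2 was -0.22 without the block, -0.35 in voom and -0.48 to 0.22 over single mice left out, C87436 -0.09 to 0.00, Gnpda1 0.00 to 0.15 and Nkd2 -0.74 to 0.07. Gpx4-ps2 passed without the block (1.57), in DESeq2 (1.47) and voom (1.95), and without mouse 4 (1.83) or mice 3 and 4 (1.85). Over the other 26 named genes, 338 alternative values comprised 296 with the same direction and side of the threshold, 19 that lost and 17 that gained a call, and 6 that changed sign. The causes were not tested. Gpx2, Gpx5 and Gpx6 had too few counts to pass the filter.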
